A study of Rattus norvegicus with 12 samples.

Results

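The hearts compared here were those of 6 male Wistar rats sampled after 4 months of vector expression, 6 of the 12 hearts measured in the series. They were chosen by the duration in the sample labels, and 3 had received AAV-VEGF-B (replicates 2, 4 and 6) and 3 AAV-HSA (replicates 1, 3 and 5). Total RNA of the left ventricle was hybridised to 1 RatRef-12 bead array per heart. Per the study's methods, the vectors were adeno-associated viruses of serotype 9 that carried human VEGF-B or human serum albumin (HSA), were given through a tail vein, and were given again to the males. The albumin vector thus put the same virus and a foreign secreted protein into the control animals, with no uninjected hearts among these 6. The methods describe vectors for both human VEGF-B isoforms, and the array labels do not say which was used. The other 6 hearts came from females after 2 months, so that the 2 sets differ in duration, sex and injection schedule at once, and these cannot be told apart.

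VEGF-B is a growth factor of the VEGF family that is abundant in heart muscle. It binds the receptor Flt1 and the co-receptor Nrp1 on endothelial cells, but not Kdr, the receptor through which VEGF-A drives most vessel growth. Flt1 also holds VEGF-A, so that ligands of Flt1 can alter how much VEGF-A reaches Kdr. In the heart, VEGF-B is known for effects on coronary vessels and, in several models, on fatty acid use.

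The question of the comparison was which left ventricular transcripts stood at another level in the VEGF-B hearts after 4 months. Of 22517 probes, 9539 were detected (detection p under 0.05 against negative control beads) on 3 or more of the 6 arrays and were tested with limma. After Benjamini-Hochberg adjustment, 38 probes (0.398% of those tested) were higher in the VEGF-B hearts and 3 (0.0314%) were lower at an adjusted p under 0.05, termed called below. In all 41, the 3 hearts of one vector lay entirely above the 3 of the other, as did 18.1% of all tested probes in one direction or the other. The fitted rise was more than 2-fold in 9 of the called probes, among them Cdk1, whose HSA values lay at background, and a fall of that size was seen in 0. The median absolute change over all tested probes was 0.12 on the log2 scale, and the smallest fitted change among the called probes was 0.64. Of the 41, 36 carried a gene symbol. Counted as genes, each by its brightest tested probe, 31 of 6998 were higher (0.443%) and 3 lower (0.0429%).

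The calls lay close to the threshold: 32 of the 41 had an adjusted p above 0.04, and 109 higher and 13 lower probes had one under 0.10. Each heart mattered to the count. With 1 heart left out, the calls numbered 6 higher without HSA replicate 1, 2 without HSA replicate 3, 9 higher and 1 lower without HSA replicate 5, 0 without VEGF-B replicate 2, 2 without VEGF-B replicate 4 and 5 without VEGF-B replicate 6. All 41 probes kept their direction and an unadjusted p under 0.05 in each of these 6 refits. This was largely set by the selection and is no separate support. The groups of all 41 did not overlap, and the refits reuse arrays on which these probes were picked. At an unadjusted p under 0.05, termed nominal below, 694 probes (7.28%) were higher in the full fit and 465 (4.87%) were lower. With each array scaled to a common median in place of quantile normalization these became 1019 and 165, so that the balance of small changes depended on the scaling. The 6 arrays had median signals of 153.6 to 179.6 and 9035 to 9746 detected probes, and the first principal component, 30.0% of the variance, separated the vectors.

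**Figure D1:**
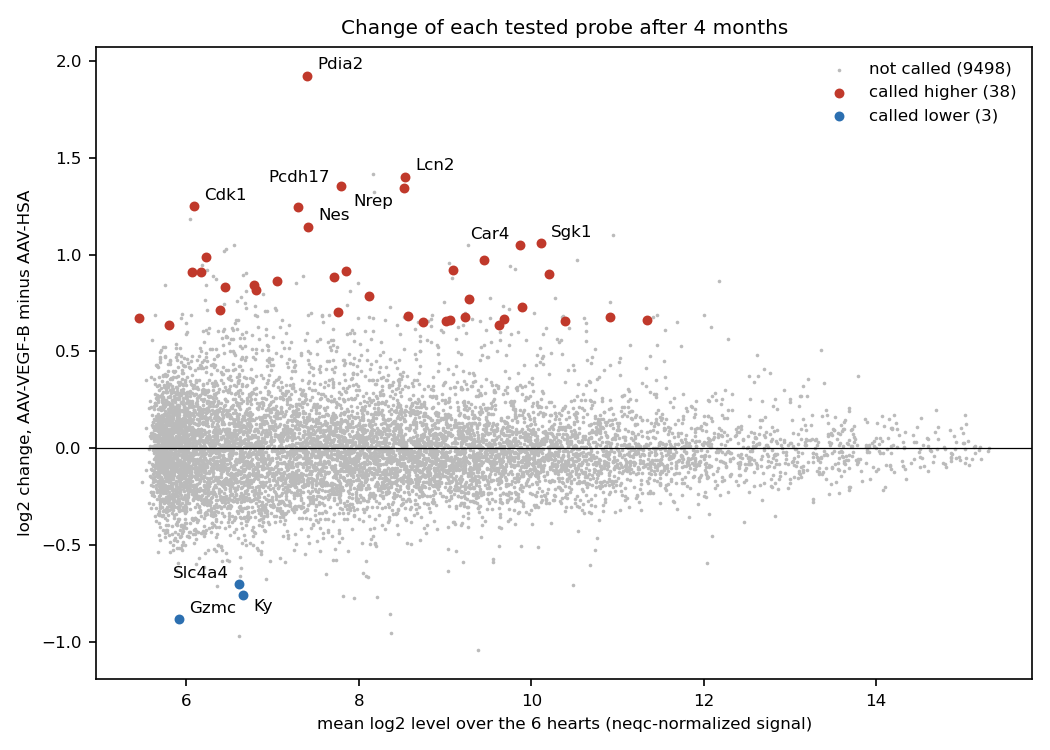
Log2 change of each of the 9539 tested probes (vertical axis, AAV-VEGF-B minus AAV-HSA, 3 hearts each) against its mean log2 level over the 6 hearts (horizontal axis). The fitted changes of the 38 probes called higher (red) run from 0.64 to 1.92 and the 3 called lower (blue) from -0.88 to -0.70, with Pdia2 at the top.

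Cdk1, a gene of cell division, had the smallest p of all tested probes. Of 18 tested genes of a cell cycle list, 13 were nominally higher in the VEGF-B hearts and 0 lower, against 7.75% and 4.77% of all tested genes, and 3 were called. The list's median change was 0.53, beside -0.01 over all 6998 tested genes. Of the 18, 4 passed the detection filter through the VEGF-B arrays alone, which favours a rise. With no filter the median over 38 list genes was 0.20. The list was also chosen with earlier results of these data known. The shares of all tested genes, 7.75% higher and 4.77% lower, are also the measure for the nominal counts given below. Cks2, which is not on that list, was called too. The 4 called genes of division have their upstream sequence shown here because promoters of mitotic genes are known for CCAAT boxes near a short mitotic element with the core TTTGAA, and those of replication genes for E2F-type sites. Each run holds the 150 bases before the RefSeq transcript start (assembly GRCr8, 5′ to 3′ on the gene's strand). Capitals mark the mitotic element TTTGAA, the box CCAAT and the E2F-type site TTGGCGC, each on either strand.
Cdk1 (chr20:19265143-19265292, plus strand): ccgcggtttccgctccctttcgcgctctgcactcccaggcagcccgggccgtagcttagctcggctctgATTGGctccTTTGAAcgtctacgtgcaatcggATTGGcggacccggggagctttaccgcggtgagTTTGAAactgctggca
Cks2 (chr17:13727520-13727669, minus strand): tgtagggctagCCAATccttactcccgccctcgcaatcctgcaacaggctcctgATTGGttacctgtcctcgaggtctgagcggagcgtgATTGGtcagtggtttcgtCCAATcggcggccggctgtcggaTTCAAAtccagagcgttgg
Aspm (chr13:53625434-53625583, plus strand): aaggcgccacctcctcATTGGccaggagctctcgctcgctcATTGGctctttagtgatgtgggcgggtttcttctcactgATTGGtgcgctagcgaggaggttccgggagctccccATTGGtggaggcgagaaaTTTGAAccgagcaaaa
Mcm6 (chr13:42404353-42404502, minus strand): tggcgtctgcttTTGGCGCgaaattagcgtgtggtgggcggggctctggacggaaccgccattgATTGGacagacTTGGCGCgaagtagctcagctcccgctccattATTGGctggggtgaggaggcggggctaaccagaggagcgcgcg

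The TTTGAA nearest the start began 16 bases before it in Cdk1 and in Aspm, and 19 bases before it, on the other strand, in Cks2. CCAAT was found in all 4 windows, and no 2 motifs overlapped. Mcm6 held none of that element but 2 copies of the E2F-type site, beginning 138 and 75 bases before the start. In windows of the same length over 27457 genes, the mitotic element was found in 9.96%, the CCAAT box in 25.3% and the E2F-type site in 1.28%. Over the 5849 tested genes with an entry, the shares were 5.25%, 27.1% and 2.33%. Of the 15 tested cell cycle genes with an entry in the promoter table, 6 held the mitotic element, 11 the CCAAT box and 2 the E2F-type site. The corresponding counts for the 30 called genes with an entry were 6, 8 and 3. A match of these letters is a description of the window and not evidence of a bound factor.

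Cdk1, the kinase that drives entry into mitosis, had log2 levels of 5.39, 5.46 and 5.54 in the HSA hearts and 6.83, 6.64 and 6.67 in the VEGF-B hearts. Its probe was not above background on any HSA array and was detected on all 3 VEGF-B arrays, so that its rise is given as at least 1.99-fold (adjusted p = 0.0104). It kept the call in 5 of the 6 fits that left out a heart, a stability shared with only Pdia2 among the named called genes. Cks2, a small protein that binds the cyclin-dependent kinases, read 5.53, 5.70 and 5.91 against 6.52, 6.81 and 6.55, a log2 change of 0.91 ± 0.14 (SE; adjusted p = 0.0445). It was detected on 1 HSA array and on all 3 VEGF-B arrays, and its change was 0.37 without background correction, so that the fitted change gives no firm size.

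Aspm, a protein of the spindle poles, was likewise not above background in any HSA heart and rose at least 1.05-fold (adjusted p = 0.0479). Its levels were 5.04, 5.06 and 5.24 against 5.90, 5.77 and 5.69. Mcm6, a subunit of the helicase that opens DNA for replication, was well above background in all 6 hearts. It read 7.37, 7.34 and 7.53 in the HSA hearts and 8.22, 8.15 and 7.97 in the VEGF-B hearts, a change of 0.70 ± 0.11 (SE; adjusted p = 0.0459). The gap between the groups was wider than the range within either.

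Just short of the threshold stood Prc1, which bundles microtubules in the dividing spindle (1.03, adjusted p = 0.0512), and Ccnd1, the cyclin of G1 phase (0.67, adjusted p = 0.0532). Ccnb2 and Kif22, a mitotic cyclin and a chromosome-bound motor, had changes of 0.90 and 0.89 with adjusted p-values of 0.0696 and 0.0721. Most genes of division were dim in these hearts. Of the 38 list genes with a named probe, 20 were not tested, and 4 of the 18 that were had passed the detection filter through the VEGF-B arrays alone. Among the 8 detected on all 6 arrays, 5 were nominally higher. With no detection filter, this held for 16 of the 38, with 0 nominally lower, and the median change of all 38 was 0.20. The list's median was 0.58 after median scaling and 0.26 without background correction. In bulk tissue, a change in the number of cells of a type and a change in RNA per cell cannot be told apart, here and in all that follows.

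Genes of the endothelium were also higher in the VEGF-B hearts, most of them at the nominal level only. Of 22 tested endothelial markers, 16 (72.7%) were nominally higher and 0 lower, the median change was 0.50 (0.47 with no detection filter), and 1, Car4, was called. Their mean log2 level was 8.95 to 9.23 in the HSA hearts and 9.45 to 9.63 in the VEGF-B hearts, with no overlap. Such a gap between list means was not particular to these markers. The respiratory chain had one too, downward and small (13.27 to 13.32 against 13.24 to 13.26), with 1 of its 47 tested genes nominally lower. The number nominally higher ranged from 10 to 15 when a heart was left out. Car4, a carbonic anhydrase anchored on the luminal face of capillaries, read 9.39, 9.37 and 9.28 against 10.37, 10.52 and 10.30. The change was 1.05 ± 0.11 (SE; 2.07-fold, adjusted p = 0.0127), and it was called in 3 of the 6 fits that left out a heart.

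Tie1, the endothelial receptor of the angiopoietin system, had 2 tested probes. The dimmer read 8.73, 8.60 and 8.69 against 9.43, 9.34 and 9.23 and was called (0.66, adjusted p = 0.0459), while the brighter had a larger difference with a larger spread and did not pass (0.78, adjusted p = 0.0924). F11r, a junctional adhesion molecule of endothelium and platelets, rose by 0.97 ± 0.12 (SE; adjusted p = 0.021). Its levels were 9.04, 8.79 and 9.05 in the HSA hearts and 10.003, 9.96 and 9.84 in the VEGF-B hearts. Gimap4, a GTPase best known from lymphocytes, read 8.82, 8.46 and 8.60 against 9.65, 9.41 and 9.58 (0.92 ± 0.13, SE; adjusted p = 0.0439). Of 8 tested lymphocyte and granulocyte markers 0 were nominally higher, with mean log2 levels of 6.40 to 6.65 against 6.31 to 6.45. Which cells carried the Gimap4 transcript was not tested.

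Apart from Car4, the 16 nominally higher markers did not pass adjustment on their brightest probe, and the other 6 passed neither test. Adgrl4, an adhesion receptor of growing vessels, had a change of 0.74 (adjusted p = 0.0636). Emcn, a mucin of veins and capillaries, stood at 11.45, 11.16 and 11.12 against 11.73, 11.88 and 11.96, a change of 0.61 (adjusted p = 0.0912). Aqp1, the water channel of capillaries, had one of 0.57 (adjusted p = 0.0924). The groups did not overlap for any of these, nor for 13 of the 22 markers in all, each with the VEGF-B hearts above, against 10.3% of all tested genes in that direction. Cdh5, the cadherin of endothelial junctions, was not above background in any HSA heart, which leaves a lower bound of 1.16-fold for its difference (adjusted p = 0.291). The 6 that passed neither test included the markers with changes below 0: Cldn5, a tight junction protein (-0.21), Vwf, the clotting factor stored in endothelium (-0.16), and Clec14a, a surface lectin (-0.08). Flt1 (0.15, on a probe near background), Cd34 (0.07) and Sox18 (0.39) were the rest, and the groups overlapped in all 6.

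**Figure D2:**
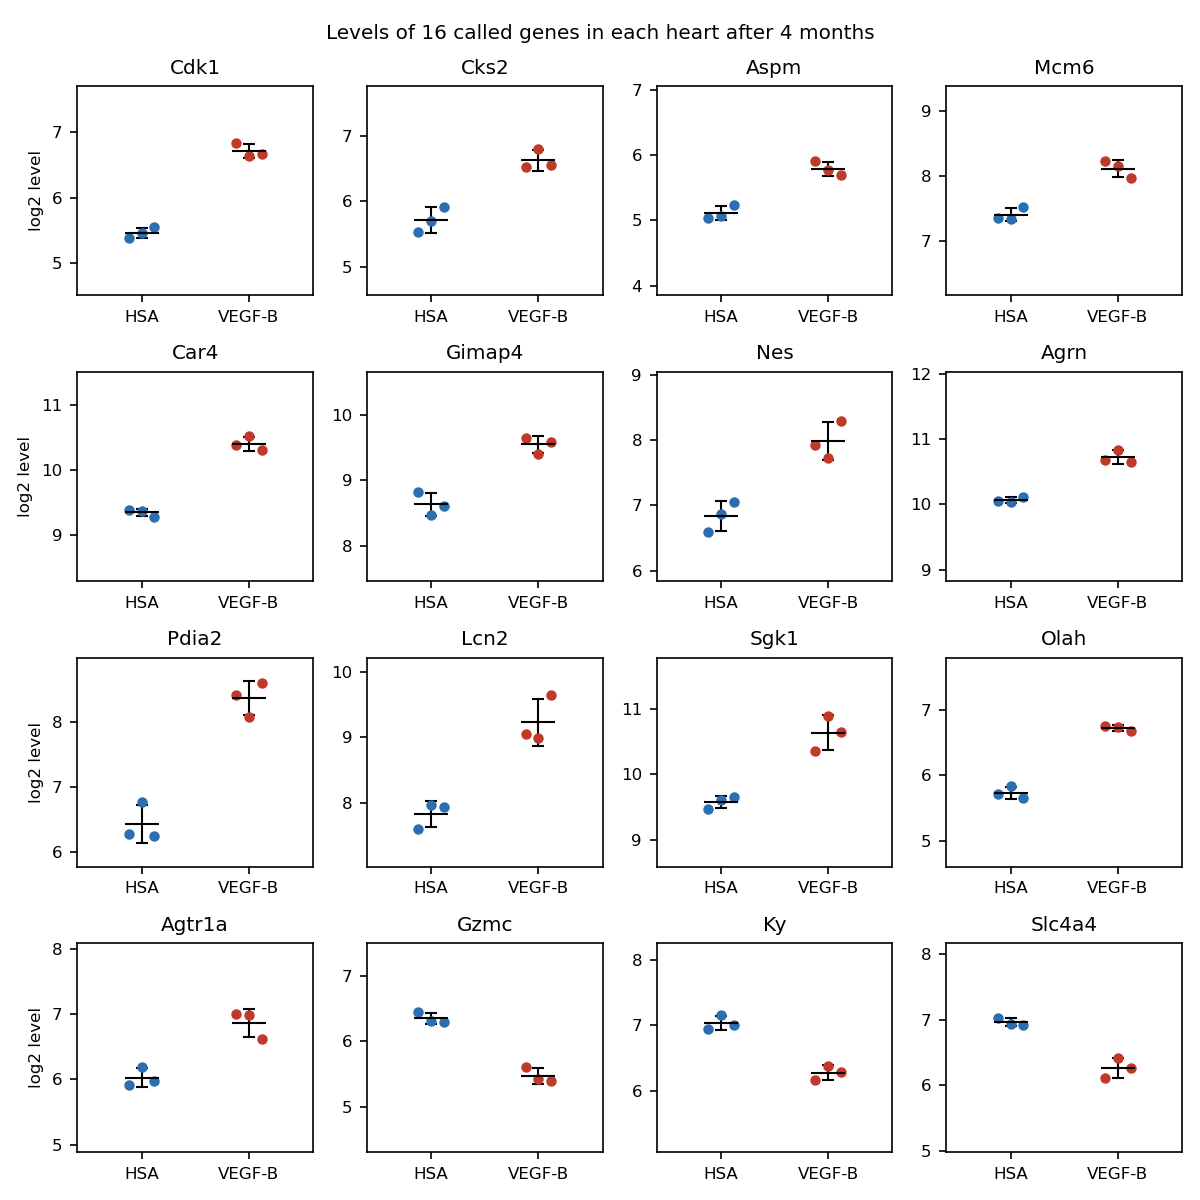
Log2 levels (vertical axes, neqc-normalized signal, all with the same span) of 16 called genes in the 3 AAV-HSA hearts (blue) and the 3 AAV-VEGF-B hearts (red), with the group mean and SD in black. In 13 genes every VEGF-B heart lies above every HSA heart, and in Gzmc, Ky and Slc4a4 every one lies below.

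Of 38 tested genes of angiogenesis and vessel growth, 16 were nominally higher and 2 lower, the median change was 0.23, and 0 passed adjustment on the brightest probe. The 16 include Tie1, Tek, Sox17 and Egfl7, which were also counted among the endothelial markers. The largest change was that of Aplnr, the receptor of apelin in sprouting vessels, with 10.18, 9.72 and 10.24 in the HSA hearts and 10.82, 11.27 and 10.97 in the VEGF-B hearts (0.97 ± 0.17, SE; adjusted p = 0.054). Col4a1, the main collagen of basement membranes, had a change of 0.65 (adjusted p = 0.0675) and Plxnd1, a semaphorin receptor, one of 0.68 (adjusted p = 0.0912). In the vessel wall outside the endothelium, 5 of 10 smooth muscle and pericyte markers were nominally higher, with a median of 0.27. The pericyte proteoglycan Cspg4 had a change of 0.49 (adjusted p = 0.127) and Higd1b, a mitochondrial protein abundant in pericytes, of 0.60 (adjusted p = 0.129).

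None of the tested VEGF ligands and receptors was called, and Vegfa was nominally lower. Vegfa read between 10.95 and 11.01 in the 3 HSA hearts and 10.45, 10.46 and 10.67 in the VEGF-B hearts, without overlap (-0.46 ± 0.11, SE; adjusted p = 0.125). The probe for rat Vegfb read 9.54, 9.48 and 9.58 against 9.37, 9.35 and 9.42, a difference of -0.15 ± 0.10 (SE; adjusted p = 0.584). The vector carried the human gene, and whether this probe binds its transcript was not tested, so that it does not check the labels. Flt1 (0.15, adjusted p = 0.722), Nrp1 (0.21, adjusted p = 0.665) and Vegfc (0.06, adjusted p = 0.892) had overlapping groups. The Flt1 probe was detected on all 6 arrays but lay near background. It read 5.88, 5.78 and 5.90 against 5.79, 5.97 and 6.23, so that its small difference does not settle whether the receptor's transcript changed. Pgf and Nrp2 had a named probe but were not detected on enough arrays, and Kdr had no named probe.

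In the Notch pathway, which governs the choice between sprouting and stable vessels, 3 of 11 tested genes were nominally higher and 0 passed adjustment. Notch1 stood at 8.72, 8.25 and 8.55 against 9.17, 9.37 and 9.05 (0.69 ± 0.15, SE; adjusted p = 0.0949). The endothelial receptor Notch4 read 8.29, 7.98 and 8.46 against 8.58, 8.74 and 8.78 (0.46 ± 0.14, SE; adjusted p = 0.229). Both receptors had every VEGF-B heart above every HSA heart, as did 10.3% of all tested genes. Their ligands Dll4 (0.38, adjusted p = 0.461) and Jag1 (0.05, adjusted p = 0.904) overlapped between the groups. In the TGF-beta and BMP list, 5 of 22 were higher (22.7%) and 2 lower (9.09%) before adjustment, against 7.75% and 4.77% of all tested genes. Smad1, which relays BMP signals, and Id1, one of its usual target genes, had changes of 0.66 (adjusted p = 0.0636) and 0.76 (adjusted p = 0.0907).

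Receptors and enzymes by which vessels respond to hormones were next. Of 20 tested vasoactive genes, 9 were nominally higher and 0 lower. Agtr1a, the main receptor of angiotensin II, was called: it read 5.92, 6.19 and 5.98 in the HSA hearts and 6.99, 6.98 and 6.61 in the VEGF-B hearts (0.83 ± 0.14, SE; adjusted p = 0.0479). F2r, the thrombin receptor, had a change of 0.70 (adjusted p = 0.054), and Gucy1b1, a subunit of the nitric oxide receptor, one of 0.54 (adjusted p = 0.0912). Nos3, the endothelial nitric oxide synthase, had 0.68 with an adjusted p of 0.142.

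Matrix and cytoskeleton genes were higher in part. Agrn, a heparan sulfate proteoglycan of basement membranes, read 10.05, 10.03 and 10.11 against 10.68, 10.84 and 10.64 (0.66 ± 0.10, SE; adjusted p = 0.0456). Nes, an intermediate filament of progenitor and growing vascular cells, rose by 1.14 ± 0.17 (SE; 2.21-fold, adjusted p = 0.0445). Its levels were 6.59, 6.86 and 7.06 in the HSA hearts and 7.93, 7.73 and 8.29 in the VEGF-B hearts. Marcksl1, an actin-binding kinase substrate, read 6.42, 6.66 and 6.80 against 7.42, 7.50 and 7.54 (0.86 ± 0.12, SE; adjusted p = 0.0445).

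Of 38 actin cytoskeleton genes, 14 were nominally higher and 1 lower, with a median change of 0.15, and of 12 intermediate filament and tubulin genes 5 were higher and 0 lower. Among those not called were Vim, the filament of mesenchymal and endothelial cells (0.65, adjusted p = 0.0953), and the tubulin gene Tubb5 (0.65, adjusted p = 0.0764). Fap, a surface protease of activated fibroblasts, rose by 0.82 ± 0.13 (SE; adjusted p = 0.0479), from 6.34, 6.30 and 6.56 to 7.10, 7.45 and 7.10. Fkbp10, a chaperone of collagen, rose by 0.68 (adjusted p = 0.0479). The fibroblast markers as a list had no common direction: 2 of 20 were nominally higher and 4 lower, the median was -0.03, and their mean log2 level was 9.67 to 9.73 against 9.64 to 9.78. After median scaling 5 were nominally higher and 1 lower, 1 was called higher and the median was 0.04, so that the balance of these counts depended on the scaling.

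The largest called change was that of Pdia2, a protein disulfide isomerase of the endoplasmic reticulum best known from the pancreas. It read 6.28, 6.77 and 6.24 in the HSA hearts and 8.41, 8.07 and 8.59 in the VEGF-B hearts, a rise of 1.92 ± 0.18 (SE; 3.79-fold, adjusted p = 0.0107). In 5 of the 6 fits with a heart left out it remained called. Without background correction its change was 1.08. Of 35 tested genes of protein folding and secretion, 12 were nominally higher and 0 lower, with a median of 0.19. The chaperone cofactor Dnajc3 (0.60, adjusted p = 0.0617), the secreted stress protein Manf (0.47, adjusted p = 0.129) and the chief chaperone Hspa5 (0.51, adjusted p = 0.129) were among them. Of the 35, 6 to 11 were nominally higher when a heart was left out.

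Lcn2, a secreted iron-scavenging protein of stressed tissue, was 2.64-fold higher (1.40 ± 0.19, SE; adjusted p = 0.0389), from 7.60, 7.96 and 7.93 to 9.06, 8.99 and 9.65. VEGF-B replicate 6 was the highest heart here, as it was for Nes and Pdia2. Sgk1, a kinase that regulates sodium transport, rose by 1.06 ± 0.15 (SE; adjusted p = 0.0424), from 9.47, 9.61 and 9.66 to 10.36, 10.90 and 10.65. Both are among 14 tested genes known to respond to glucocorticoids, of which 6 were nominally higher and 1 lower. Others of that list were spread more widely within a group: Ddit4, an inhibitor of mTOR signalling, read 8.76, 9.49 and 7.96 against 9.85, 9.97 and 9.55 (1.05, adjusted p = 0.228). Per1, a clock gene, read 10.21, 10.24 and 9.13 against 10.50, 10.56 and 10.36 (0.62, adjusted p = 0.396). The metallothionein gene Mt1 went the other way without passing (-0.60, adjusted p = 0.133).

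Called genes outside these groups included several enzymes of lipids and small molecules. Olah, a thioesterase that frees fatty acids from their synthase, rose by 0.99 ± 0.10 (SE; adjusted p = 0.0127), from 5.71, 5.84 and 5.66 to 6.75, 6.74 and 6.68, and was detected on 2 HSA arrays. Cyp4b1, a cytochrome P450, rose by 0.90 ± 0.14 (SE; adjusted p = 0.0445), from 9.88, 9.74 and 9.63 to 10.66, 10.86 and 10.43. Aloxe3, a lipoxygenase of the epidermis, rose by 0.72 (adjusted p = 0.0445), Mgst2, a microsomal glutathione transferase, by 0.65 (adjusted p = 0.0456), and Pnp, which splits purine nucleosides, by 0.68 (adjusted p = 0.0456).

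Nrep, a small intracellular protein first described in neurons, rose by 1.35 ± 0.15 (SE; 2.54-fold, adjusted p = 0.0181), from 7.53, 7.94 and 8.07 to 9.31, 9.11 and 9.17. The adhesion protein Pcdh17 rose by 1.36 ± 0.21 (SE; adjusted p = 0.0454), from 7.60, 6.90 and 6.84 to 8.33, 8.36 and 8.72. Its relative Pcdh19 rose by 0.64 (adjusted p = 0.0456). The caveolar ATPase Ehd2 and the calcium-binding protein S100a11 each rose by 0.66 with an adjusted p of 0.0456. The other called rises with a symbol were Tspan14, Chst1, Cmtm3, Kank3, Ripply3 and Dok4, between 0.64 and 0.91. Ripply3 was not above background in the HSA hearts and was at least 1.32-fold higher. Dok4 was called on one of 2 tested probes, and the brighter probe read -0.03 with an adjusted p of 0.933. The 5 called probes without a symbol were all higher.

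The genes that were lower passed the test in small number. Gzmc, a granzyme of cytotoxic lymphocytes, read 6.45, 6.31 and 6.30 in the HSA hearts and 5.61, 5.42 and 5.38 in the VEGF-B hearts. It was detected on all 3 HSA arrays and on 0 VEGF-B arrays, which gives a level at least 1.603-fold lower (adjusted p = 0.0307). Ky, a muscle protein needed for the upkeep of skeletal muscle, fell by 0.76 ± 0.11 (SE; adjusted p = 0.0445), from 6.94, 7.15 and 7.01 to 6.16, 6.38 and 6.29. Slc4a4, a sodium bicarbonate cotransporter, fell by 0.70 ± 0.11 (SE; adjusted p = 0.0459), from 7.03, 6.94 and 6.93 to 6.11, 6.42 and 6.26. None of these 3 was called in any fit that left out a heart.

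The next falls by p did not pass. Akt2, the Akt kinase of insulin action, had a difference of -0.65 (adjusted p = 0.0721), Rnf121, a ubiquitin ligase, of -0.62 (adjusted p = 0.0675), Limd1, a LIM domain protein, of -0.85 (adjusted p = 0.0912) and Pth1r, the parathyroid hormone receptor, of -0.64 (adjusted p = 0.0912). In all 4 the groups did not overlap, as in 8.53% of all tested genes in that direction. Shroom3, Atp6ap1l and Ccn3 completed the set, with differences of -0.54, -0.76 and -0.51 and adjusted p-values of 0.0721, 0.0782 and 0.0987.

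For the genes of fatty acid degradation, 0 of 35 tested members were called, 0 were nominally higher and 6 lower, against 4.77% of all tested genes. Of the 35, 28 had a change below 0, 12 had every VEGF-B heart below every HSA heart, beside 8.53% of all tested genes, and the median change was -0.11. Median scaling lowered the non-overlapping lower probes from 807 to 309 over all probes. With it 2 of the 35 were lower and 1 higher before adjustment and the median was -0.08. Over all 6998 tested genes it also cut the nominally lower from 334 to 116 and raised the nominally higher from 542 to 801. The median of all tested genes went from -0.01 to 0.07. Hadha, part of the trifunctional enzyme of beta-oxidation, read 12.14, 12.44 and 12.39 against 11.88, 11.98 and 11.74 (-0.45 ± 0.12, SE; adjusted p = 0.172). Crat, which moves acyl groups to carnitine, read 11.18, 11.19 and 11.18 against 10.81, 10.93 and 10.87 (-0.32, adjusted p = 0.231). Decr1, needed for unsaturated fatty acids, had -0.35 (adjusted p = 0.248).

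Among genes of fatty acid uptake and storage, 2 of 24 were higher (8.33%) and 5 lower (20.8%) before adjustment, against 7.75% and 4.77% of all tested genes. Plin5, the coat protein of lipid droplets in oxidative tissue, read 9.79, 9.73 and 10.03 against 8.88, 9.62 and 9.28 (-0.59 ± 0.18, SE; adjusted p = 0.231). The carnitine carrier Slc22a5 had -0.38 (adjusted p = 0.173), the fatty acid transport proteins Slc27a1 and Slc27a4 had -0.31 (adjusted p = 0.308) and -0.18 (adjusted p = 0.68), and Mlycd, which lowers malonyl-CoA, had -0.28 (adjusted p = 0.447). Slc27a3 was not tested and Fasn had no named probe. Of 21 PPAR targets and energy regulators 0 were higher and 3 lower before adjustment, with the largest fall in Ucp3 (-0.51, adjusted p = 0.196). Pdk4, the kinase that shuts off pyruvate dehydrogenase, also had -0.51 but was not nominally lower (adjusted p = 0.483). Its groups overlapped, with 1 HSA heart far above the others (9.53, 9.60 and 10.52 against 9.05, 9.63 and 9.45). Ppargc1a (-0.05, adjusted p = 0.932) and Cycs (-0.05, adjusted p = 0.884) overlapped.

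Of 28 genes of glycolysis and glucose use 0 differed nominally in either direction, with a median of -0.04. The respiratory chain had 1 of 47 lower and 0 higher, with a median of -0.02. Cardiomyocyte markers, the defining genes of the tissue, were detected on all 6 arrays in 22 of 24 cases. Their mean log2 level was 11.93 to 11.99 in the HSA hearts and 11.86 to 11.91 in the VEGF-B hearts, also without overlap. Of these 24 markers 0 were higher and 1, the cardiac transcription factor Nkx2-5, was lower before adjustment (-0.32, adjusted p = 0.355). Hypertrophy and stress markers had 0 of 15 in either direction. Among 24 genes of cardiac calcium handling and ion channels 4 were lower and 1 higher, with Kcnd2, a channel of the transient outward potassium current, at -0.64 (adjusted p = 0.127) and Kcnh2, a repolarising potassium channel, at -0.58 (adjusted p = 0.161).

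**Figure D3:**
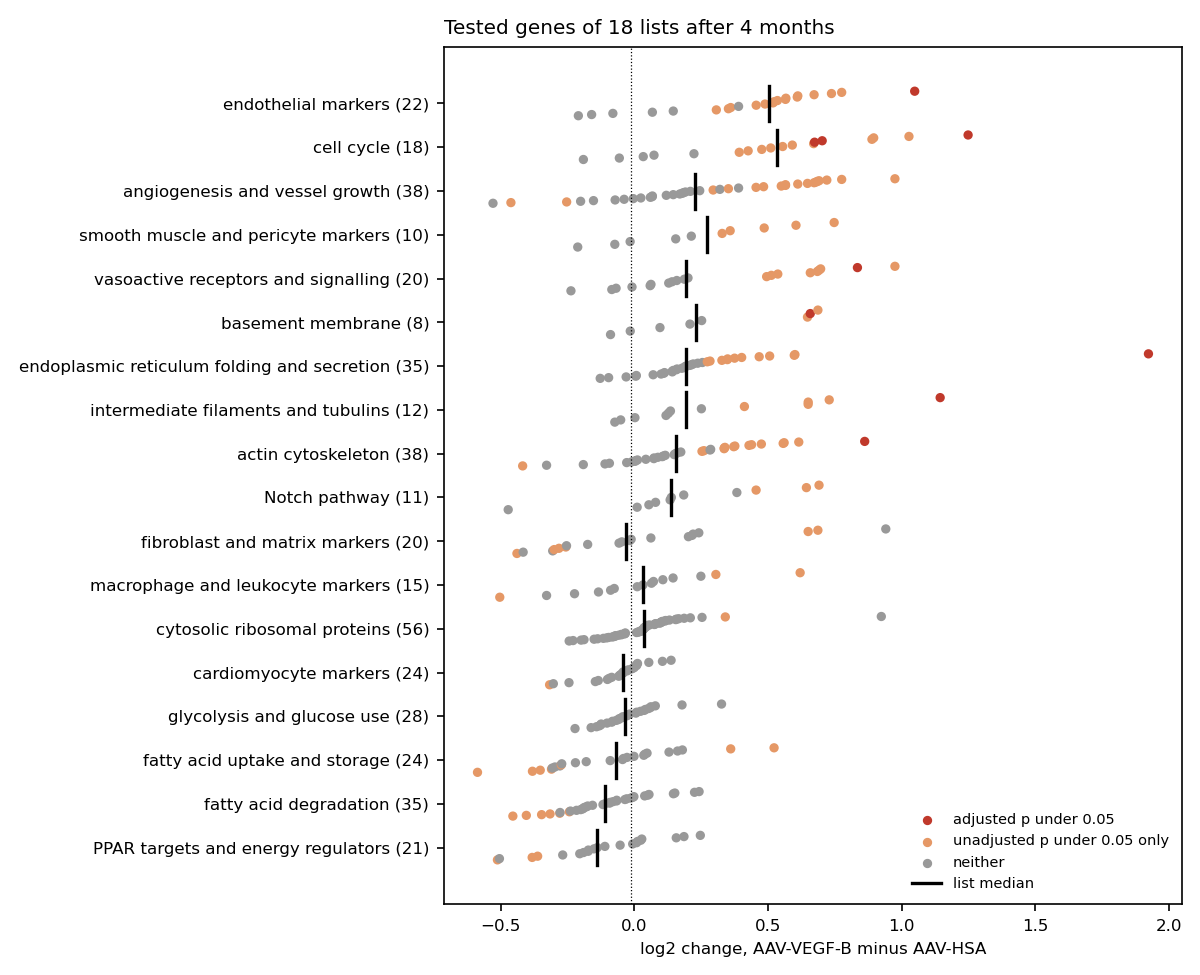
Log2 change (horizontal axis, AAV-VEGF-B minus AAV-HSA) of each tested gene in 18 lists, with the number tested in brackets. Red points passed at an adjusted p under 0.05, orange points only before adjustment, black bars are list medians and the dotted line is the median of all tested genes, -0.01. Endothelial markers and cell cycle genes have medians of 0.50 and 0.53 (0.47 and 0.20 with no detection filter), and fatty acid degradation and PPAR targets of -0.11 and -0.14.

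Other cell types were measured beside these groups. Of 15 tested macrophage and leukocyte markers 2 were nominally higher (13.3%) and 1 lower (6.67%), against 7.75% and 4.77% of all tested genes. Their median was 0.03, with mean log2 levels of 7.47 to 7.66 against 7.52 to 7.68. Ptprc, the pan-leukocyte marker, was not detected on enough arrays, nor were Cd3d, Cd4, Cd8a or Ms4a1 of T and B cells. Of 11 tested genes of MHC class II and antigen presentation 0 passed before adjustment. The interferon list had 3 of 23 higher and 0 lower, led by Ifit1, an RNA-binding antiviral protein, at 6.04, 5.20 and 5.12 against 7.17, 6.37 and 6.38 (1.19 ± 0.28, SE; adjusted p = 0.127). In each group 1 heart lay well above the other 2. Ifit1 was detected on 1 HSA array, as was its relative Ifit2, so that the fitted change of Ifit1 gives no firm size. Cytosolic ribosomal proteins had 1 of 56 higher and 0 lower, with a median of 0.03. The Y-linked list had 0 named probes, so the sex in the labels was not checked.

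The hearts of the other set, sampled after 2 months, share no animal with these and show how the called probes stood elsewhere, with the sex, duration and injection schedule all different. In them, 125 of 9451 tested probes were higher (1.32%) and 13 lower (0.138%). All 41 probes called after 4 months had the same sign after 2 months, 35 with groups that did not overlap and 17 called, with Gzmc not tested there, while 66.1% of all 9539 probes had the same sign in both sets. Over all probes tested after 4 months, 18% did not overlap in the direction of the 4-month change, and 1.46% of those tested in both sets were called in it. The median change of the 38 called rises was 0.84 after 4 months and 0.68 after 2 months. These probes were selected by their 4-month values, which favours a larger median after 4 months. Cdk1 had 1.03 after 2 months (adjusted p = 0.0505), Nrep 1.10 (adjusted p = 0.0348) and Car4 0.82 (adjusted p = 0.0348). Sgk1, Nes and Pcdh17 had larger values after 2 months, 1.52, 1.40 and 1.65. Aloxe3 had 0.07 after 2 months (adjusted p = 0.854), the smallest in size among the called probes.

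For the lists the medians of both sets are given side by side. The median of the endothelial markers was 0.50 after 4 months and 0.43 after 2 months, that of the cell cycle genes 0.53 and 0.42, and that of fatty acid degradation -0.11 and -0.26. Of the 18 tested cell cycle genes, 4 had passed the 4-month filter through the VEGF-B arrays alone. For MHC class II it was 0.05 after 4 months and 0.70 after 2 months, for macrophage and leukocyte markers 0.03 and 0.34, and for interferon genes 0.14 and 0.42. Whether these medians differ between the sets was not tested. For single probes the difference was tested as an interaction over all 12 hearts, and 0 of 10281 passed, with 542 (5.27%) at an unadjusted p under 0.05. Among the 5 smallest interaction p-values in the downward direction stood Sik1, a salt-inducible kinase, with 8.62, 8.69 and 9.03 against 8.83, 8.83 and 8.95 after 4 months (0.09, adjusted p = 0.838) and a change of 1.28 after 2 months. Its interaction had an adjusted p of 0.942. 

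**Figure D4:**
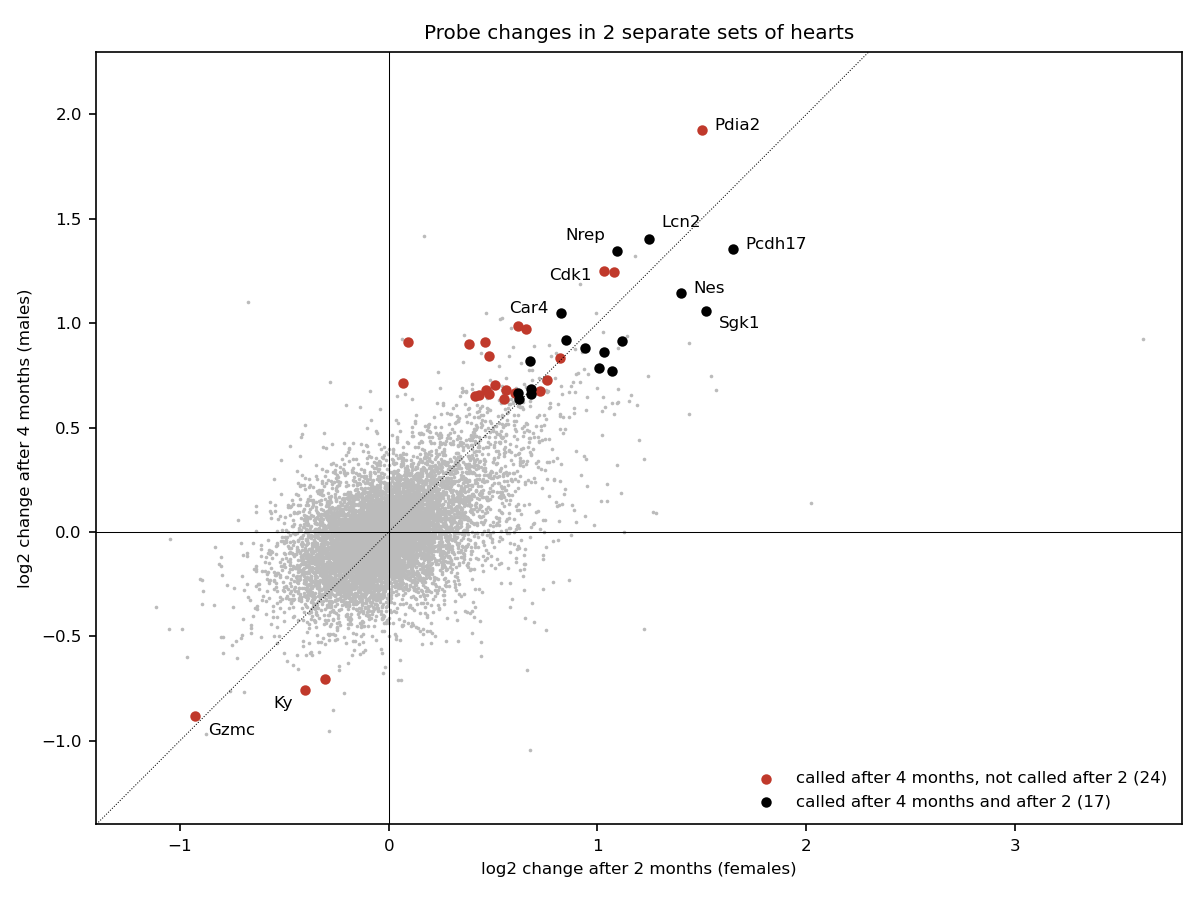
Log2 change after 4 months in males (vertical axis) against that after 2 months in females (horizontal axis) for the 9539 probes tested after 4 months, with equality as a dotted line. The 41 probes called after 4 months all lie in the upper right or lower left, 17 of them called after 2 months as well (black) and 24 not (red).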

How the data were processed

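Non-normalized bead signals were deposited as intensities, each paired with its detection p-value, and the authors' processed values were deposited as log2. Quantile normalization of these signals followed by log2 gave the latter to within 0.005. Per the study's methods, the arrays were quantile normalized and tested with empirical Bayes statistics in Chipster, and the background correction is not given in the sources used here.

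Signals of the 6 arrays were normalized on their own with neqc of limma 3.58.1 under R 4.3.3: normexp with the detection p-values, offset 16, quantile, log2. Probes detected (p under 0.05) on 3 or more of the 6 arrays were tested with lmFit and eBayes without covariates, with Benjamini-Hochberg adjustment over 9539 probes and a threshold of 0.05. The fit was tested on simulated data. Levels are log2 normalized signals and are not compared between genes. The 2-month hearts were normalized and fitted separately, and the interaction used all 12 arrays. An exact permutation test of 3 against 3 cannot go below a two-sided p of 0.1, so none was used. The number of arrays limits the precision, and no 2 arrays held identical signals.

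Of the probes, 13787 had 1 gene symbol in GEO's platform annotation, 8730 none here and 0 several, and 13747 gene identifiers were found in a RefSeq table of assembly GRCr8, which changed 0 symbols and also gave the promoter sequences. Where a gene had several tested probes, the brightest on average stands for it. Where no array of a group detected a probe, its fold is a lower bound: the mean of the detected group against, on each array of the other, the lowest signal of any detected probe or the probe's own where higher. The members and 42 gene lists were chosen with earlier results of these data known. Lists can share members, so their counts are not independent. The text names up to 15 called rises and 10 falls by size, with uncalled genes of the smallest p filling up the falls, up to 3 genes per list with the smallest unadjusted p, the VEGF and metabolic genes the study discusses, and the 5 smallest interaction p-values each way. Other called genes, further list members and defining markers are named because they complete a count or the picture of a list, and were chosen after their values were seen. Alternatives to each step are given in the closing section.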

Additional observations from a re-analysis of the deposited data

Results flagged for a closer look

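In 6 genes among those with the smallest interaction p, all 3 VEGF-B hearts lay on one side of the HSA hearts after 4 months and on the opposite side after 2 months. Zfp800 and Ccdc134 were lower after 4 months (log2 changes of -0.42 and -0.28) and higher after 2 months (0.33 and 0.65). Ggct, Pianp, Deaf1 and H2ap had 0.28, 0.29, 0.24 and 0.20 after 4 months and -0.26, -0.44, -0.43 and -0.40 after 2 months. In the interaction test of limma over all 12 hearts each had an adjusted p of 0.942, so that none passed the test of the difference, and none of the 6 was called in the 4-month comparison. They were picked as extremes of this same difference among 10281 probes, a choice that favours opposite sides in the 2 sets. The share of all probes with such opposite sides was not counted. After 4 months alone, the groups did not overlap in 18.1% of all tested probes. H2ap was not above background in the HSA hearts, where its bound is at least 1.01-fold and the fitted 0.20 gives no size. Zfp800 was detected on 1 VEGF-B array after 4 months and on too few arrays to be tested after 2 months, and Pianp was detected on 1 HSA array.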

How the results depend on the processing

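The count of 38 higher and 3 lower probes moved with most choices. Without background correction it was 127 and 16, with the deposited log2 values 130 and 15, with a mean-dependent robust prior 170 and 26, with median scaling 96 higher, and in a fit of 4 groups over 12 arrays 77 higher. An adjusted p under 0.10, a threshold chosen after seeing the data, gave 109 and 13. Other detection filters, array weights and normalization over 12 arrays stayed within 1.5 times. With a heart left out the counts were 0 to 9 higher and 0 to 1 lower. For single named genes, 117 of the refitted values lost and 113 gained the call. The 1587 that kept their side were mostly uncalled genes that stayed uncalled. Of the called genes picked by the naming rule, Cdk1 and Pdia2 kept the call in 5 of the 6 fits without a heart. Car4 kept it in 3, Nrep in 2, Olah and Pcdh17 in 1 each, and the rest in 0. All called probes that were tested kept their direction under each setting, but every setting used hearts on which these probes were picked. The cause was not tested. List members called in either direction were 13, and 54 without background correction, 30 with median scaling, 26 in the 4-group fit and 0 to 6 with a heart left out. Non-overlapping lower probes numbered 807, and 309 with median scaling. After 2 months, the 125 higher and 13 lower probes became 223 and 73 without background correction, 461 higher with median scaling, and 3 to 35 higher and 0 to 8 lower with a heart left out. The interaction gave 0 calls under each setting. Fitted sizes also depended on the background correction, most of all for dim probes. Without it Olah had 0.40 in place of 0.99, Agtr1a 0.35 in place of 0.83, and Ky -0.33 in place of -0.76. The brighter Car4 had 0.92 in place of 1.05. Where a probe was not above background in a group, its fitted change is no estimate of its size. No paired analysis was possible because the groups compared share no replicate number. The fit with the slide as a block was not run, since the files name no slides.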
